A study of Mus musculus with 12 samples.

Results

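T cell receptor signalling genes are the 33 genes whose products carry a signal from the T cell receptor at the cell surface to the nucleus: the invariant chains of the receptor, its coreceptors, the first kinases and phosphatases, the adaptors, the enzymes of the signal branches, and the calcium arm that ends in the NFAT factors and Camk4. They were chosen by symbol for their place in the pathway, with earlier results of these data known. All 33 symbols were found among the 23337 in the files. All 33 also passed the filter on low counts, which left 12038 genes for the tests.

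The 12 RNA-seq libraries came from regulatory T cells (Treg), the CD4 T cells that restrain immune responses and carry the factor Foxp3, with 3 libraries in each of 4 groups. Induced Treg (iTreg) with the KO label came from Hrd1 flox/flox, FoxP3-cre+-GFP mice, and iTreg with the WT label from Hrd1 +/flox, FoxP3-cre+-GFP mice. Natural Treg (nTreg) with the KO label and with the WT label came from the same pair of genotypes. The mice were of the strain C57BL/6 and 8 weeks old, and cells were taken from spleen and lymph nodes. The nTreg were sorted as CD4 cells positive for GFP, and the iTreg were CD4 T cells held for 5 days with IL2 and TGFbeta, after which the GFP-positive cells were taken. Cre was driven by FoxP3 in both labels, and the WT label has a floxed allele too, so no group had an intact pair of Hrd1 alleles without Cre. Hrd1, listed as Syvn1, attaches ubiquitin to misfolded proteins of the endoplasmic reticulum so that they are degraded. The labels do not say whether the libraries of a group came from separate mice, so the spread behind each p-value is that of these libraries and may be technical.

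When the T cell receptor meets its ligand, the kinase Lck phosphorylates the CD3 chains and Zap70 binds there, and Zap70 then phosphorylates the scaffold Lat. Lat gathers the adaptors Lcp2 and Grap2, the exchange factor Vav1 and the phospholipase Plcg1, whose products open the calcium arm (calcineurin and NFAT), the Ras arm through Rasgrp1, and the NF-kappa B arm through Prkcq, Bcl10 and Malt1. Treg need a receptor signal to arise in the thymus and to keep their suppressive function, and receptor signals also help to switch on Foxp3 in cultured cells.

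Total counts ranged from 6763458 to 15462894 per library. Levels below are counts scaled to a common library total (CPM) after TMM normalisation, and the levels of 3 libraries follow their replicate numbers 1, 2 and 3. Syvn1 was at 54.6, 73.1 and 63.1 CPM in KO-labelled iTreg, against 61.6, 72.2 and 101 CPM in WT-labelled iTreg. In nTreg it was at 146, 137 and 129.7 CPM with the KO label, against 73.7, 87.2 and 75.5 CPM with the WT label, an order that goes against the KO label. The count covers the whole gene, so it does not check the label, and the direction of each KO comparison is that of libraries labelled KO over libraries labelled WT. Some libraries stood apart: Xist was at 723 CPM without normalisation in nTreg WT replicate 3, at 486 in nTreg KO replicate 3 and at 2035 in iTreg WT replicate 2, with no more than 0.232 in any other library. Csf1r, a macrophage marker, was at 200.4 CPM without normalisation in nTreg KO replicate 2 and at 95.8 in nTreg WT replicate 2. Foxp3, which marks Treg, was at 187 CPM without normalisation in iTreg KO replicate 2 and between 307 and 673 in the other 11 libraries.

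The receptor and coreceptors had the most negative median of the 5 roles in nTreg, as described below, so the promoters of the CD3 chains and of Cd5 are shown here. Each is the RefSeq window of 300 bases, 250 before the start and 50 from the start on, in GRCm38.p6, on the strand of the gene. Capitals mark GGAAGT, a core of the kind that ETS factors bind, on either strand (so also ACTTCC), and CANNTG, the E box of basic helix-loop-helix factors. The windows are chr9:44980382-44980681 on the minus strand for Cd3g, chr9:44981536-44981835 on the plus strand for Cd3d, chr9:45009562-45009861 on the minus strand for Cd3e, chr1:165788431-165788730 on the plus strand for Cd247, and chr19:10738925-10739224 on the minus strand for Cd5.
Cd3g: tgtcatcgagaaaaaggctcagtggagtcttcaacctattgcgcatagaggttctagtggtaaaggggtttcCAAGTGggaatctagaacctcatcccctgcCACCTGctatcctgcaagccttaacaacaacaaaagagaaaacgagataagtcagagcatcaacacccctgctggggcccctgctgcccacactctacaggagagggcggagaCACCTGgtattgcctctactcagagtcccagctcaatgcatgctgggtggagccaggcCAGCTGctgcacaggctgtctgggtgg
Cd3d: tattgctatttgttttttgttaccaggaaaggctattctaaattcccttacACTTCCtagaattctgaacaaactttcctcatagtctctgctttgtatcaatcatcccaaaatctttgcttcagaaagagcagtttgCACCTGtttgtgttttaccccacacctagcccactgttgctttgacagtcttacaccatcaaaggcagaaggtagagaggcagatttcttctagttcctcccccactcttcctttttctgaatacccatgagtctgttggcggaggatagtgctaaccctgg
Cd3e: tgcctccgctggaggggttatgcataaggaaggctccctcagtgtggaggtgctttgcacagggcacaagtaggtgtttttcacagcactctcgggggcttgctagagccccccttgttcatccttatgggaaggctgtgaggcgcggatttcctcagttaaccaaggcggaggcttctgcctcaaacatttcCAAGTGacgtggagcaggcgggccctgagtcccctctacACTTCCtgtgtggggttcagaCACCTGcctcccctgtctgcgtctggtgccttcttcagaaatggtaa
Cd247: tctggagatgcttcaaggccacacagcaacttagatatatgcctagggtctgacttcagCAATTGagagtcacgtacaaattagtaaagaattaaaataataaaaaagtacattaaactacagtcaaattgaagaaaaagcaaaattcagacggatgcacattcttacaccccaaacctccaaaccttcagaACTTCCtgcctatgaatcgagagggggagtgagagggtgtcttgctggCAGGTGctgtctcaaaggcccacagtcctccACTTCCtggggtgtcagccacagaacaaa
Cd5: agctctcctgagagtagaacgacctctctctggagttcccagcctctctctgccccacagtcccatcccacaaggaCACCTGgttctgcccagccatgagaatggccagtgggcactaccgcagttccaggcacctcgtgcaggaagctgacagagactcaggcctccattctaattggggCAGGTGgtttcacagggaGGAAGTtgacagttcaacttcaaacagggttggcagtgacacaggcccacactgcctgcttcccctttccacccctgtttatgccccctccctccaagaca

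The windows of Cd3d and Cd3e each held 1 GGAAGT, that of Cd247 held 2 and that of Cd5 held 1, while that of Cd3g held none and 4 CANNTG. No GGAAGT shared a base with a CANNTG in these windows. Of the 33 members 24 had an entry, with 33 windows in all because some genes have several starts. GGAAGT was in 16 of these 33 windows (48.5%), against 23.8% of the 32851 windows of all genes. CANNTG was in 29 windows (87.9%), against 72.3% of all. The other motifs searched on both strands were GGAA, which lies within GGAAGT, in 90.9% of member windows and 96% of all, GGAAA in 66.7% and 61.3%, and TATAAA in 9.09% and 13.6%. The 2 windows of Ptprc overlap and share a GGAAGT, and the 2 of Themis overlap and share a CANNTG. These shares describe letters in the windows, are per window and not per gene, and were not tested.

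By position in GRCm38 (GENCODE M21), Cd3g (chr9:44969572-44980431, minus strand), Cd3d (chr9:44981786-44987339, plus strand) and Cd3e (chr9:44998740-45009627, minus strand) form a cluster. The starts of Cd3g and Cd3d face away from each other across 1.35 kb, and Cd3d and Cd3e are 11.4 kb apart. Cd5 and Cd6 are 50.3 kb apart on chromosome 19, and Cd4 and Ptpn6 are 126 kb apart on chromosome 6. The exons of Cd247 (chr1:165788681-165877277, plus strand) share 3007 bases, 56.4% of their length, with Pou2f1 on the opposite strand. Whether counting used the strand is not given in the sources used here, so the Cd247 counts are uncertain. For no other member did exons shared with another gene pass 6.96% of its length.

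Per kilobase of exon, Lck, the kinase that starts the signal, led the members at 279 ± 20.1 CPM per kb in KO-labelled iTreg, at 311 ± 10.01 CPM per kb in KO-labelled nTreg and at 361 ± 7.49 CPM per kb in WT-labelled nTreg (SD, n = 3 each). In WT-labelled iTreg Cd2, an adhesion and costimulatory receptor, was at 265 ± 56.4 CPM per kb and Lck at 252 ± 29.7, an order within their spread. In nTreg Cd2 came second, at 230 ± 7.33 CPM per kb with the KO label and 306 ± 6.54 with the WT label. Lat, Cd4 and Cd3d followed in this order with the KO label, at 190 ± 8.87, 172 ± 8.32 and 152 ± 17.6 CPM per kb. With the WT label Cd4 came next after Cd2, at 229 ± 8.79 CPM per kb, before Lat at 214 ± 3.36 and Cd3d at 203 ± 19.7. The lowest members per kilobase in each of the 4 groups were Themis, an adaptor of thymocyte selection, and Ppp3ca, a catalytic subunit of calcineurin. Summed over the 33 members, the level was 9806 ± 768 CPM in iTreg with the KO label, 9803 ± 1302 CPM in iTreg with the WT label, 13940 ± 214 CPM in nTreg with the KO label and 16850 ± 15.3 CPM in nTreg with the WT label. The summed level was thus lowest in both iTreg groups and highest in nTreg with the WT label. The map of members by library shows the same order for most single genes.

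**Figure D1:**
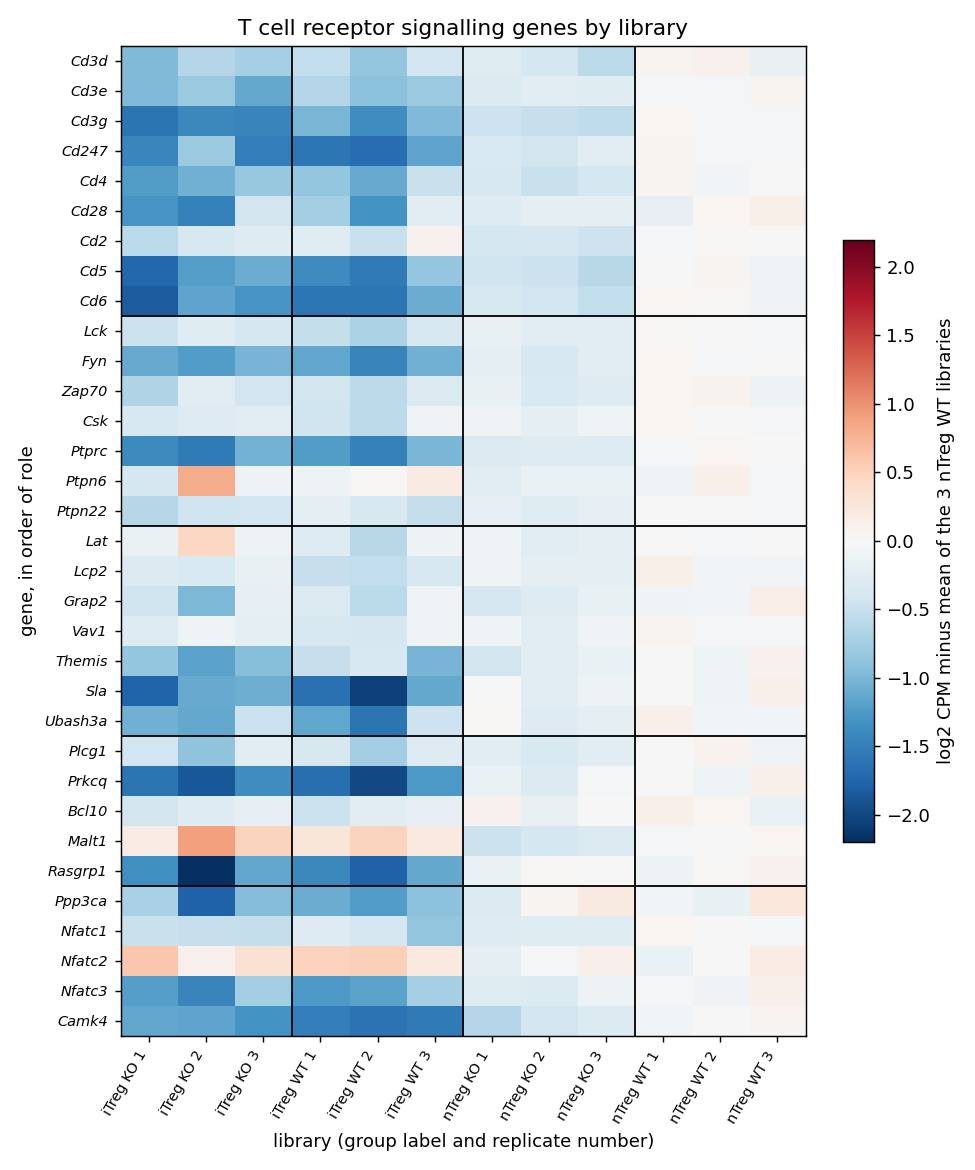
Colours give the log2 CPM of each member in each library minus the mean log2 CPM of the 3 nTreg libraries with the WT label, with genes down the page in order of role, horizontal lines between the 5 roles and libraries across. Blue (lower) fills most of both iTreg groups, a paler blue fills the nTreg libraries with the KO label, and Malt1 and Nfatc2 are red (higher) in most iTreg libraries.

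In natural Treg the question was how receptor signalling genes stand where both Hrd1 alleles are floxed, beside cells with 1 floxed allele. Cd3g, a chain of the CD3 complex, and Camk4, a calcium-dependent kinase of the nucleus, fell, by 29.6% and 26.9%. Of the 33 members these 2 passed the test and none was higher. All 33 members had a negative log2 fold change, and the 3 KO-labelled libraries lay below the 3 WT-labelled ones without overlap in 26. The median log2 fold change of the members was -0.26, and they ran from -0.51 to -0.01. The 4 members between -0.04 and -0.01 (Bcl10, Rasgrp1, Nfatc2 and Ppp3ca) had values of 0 to 0.11 in some fits that left out libraries.

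Tests are by edgeR (quasi-likelihood), with Benjamini-Hochberg adjusted p-values over all 12038 genes, log2 fold changes are fitted values with a standard error (SE), and a gene passed with an adjusted p under 0.05. Over all tested genes 0.341% passed as lower, 2.18% as higher, 2.53% passed in either direction, 14.1% had all KO-labelled libraries below all WT-labelled ones, 47.9% had a negative value, and the median was 0.01. Libraries of the same number deviated together, so a fit blocked on that number is given where it changes a call. With the block 10 members were lower (3.64% of all genes): Cd3d, Cd3g, Cd4, Cd2, Cd5, Fyn, Ptprc, Plcg1, Malt1 and Camk4. By DESeq2 3 were lower (1.26% of all genes), the third being Cd2. Within pairs of the same number 30 of 33 members were lower in all 3 pairs and none was higher in all 3. Pairs were not counted over all genes, so how far this count departs from the share of all genes is not known. The members were chosen with results of these data known and share a pathway, so these counts describe them and carry no test of the list.

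Among the receptor and its coreceptors (9 genes, median log2 fold change -0.41), 1 passed the test, 5 did with the block, and none of the 9 had overlapping groups. Cd3g was counted at 377, 365 and 354 CPM in the KO-labelled nTreg libraries, against 538, 508 and 512 CPM in the WT-labelled ones (log2 fold change -0.51, SE 0.11, adjusted p = 0.032, edgeR; 0.012 with the block). Every KO-labelled library was at least 131 CPM below every WT-labelled one. Its neighbour Cd3d, another CD3 chain, was at 307, 279.7 and 243 CPM with the KO label, against 384, 394 and 328 CPM with the WT label (a log2 fold change of -0.41, SE 0.14, adjusted p = 0.19 by edgeR; 0.047 with the block). Cd3e, the third gene of the cluster, was at 467, 487 and 480.1 CPM in KO-labelled nTreg, against 568, 559 and 599 CPM in WT-labelled nTreg (log2 fold change -0.27). Cd3e had the value closest to 0 of this cluster and did not pass with the block (adjusted p = 0.09, edgeR); whether these chains changed by different amounts was not tested. Cd247, the zeta chain, was at 288, 275 and 304 CPM with the KO label, against 377, 351 and 356 CPM with the WT label (a log2 fold change of -0.32). Pou2f1, which shares exons with it, had a log2 fold change of -0.38 (SE 0.23, adjusted p = 0.51, edgeR).

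Cd4, the coreceptor for MHC class II, was at 719.5, 656 and 707 CPM in KO-labelled nTreg, against 961, 891 and 919.9 CPM in WT-labelled nTreg (log2 fold change -0.41, SE 0.15, adjusted p = 0.23 by edgeR; 0.019 with the block). Cd5, an inhibitory coreceptor whose level is known to follow receptor signal strength in thymocytes, was at 589, 575 and 523 CPM with the KO label, against 802, 830.2 and 752 CPM with the WT label (a log2 fold change of -0.50, SE 0.19, adjusted p = 0.25 by edgeR; 0.031 with the block). Both groups were tight for these genes, and their gap was wider than their range. Cd6, a relative of Cd5 near it on the chromosome, was at 616, 588 and 541 CPM with the KO label, against 812, 799 and 746 CPM with the WT label (a log2 fold change of -0.43). Cd2 was at 406, 409.7 and 386 CPM in KO-labelled libraries, against 523, 545 and 529 CPM in WT-labelled ones (log2 fold change -0.41, SE 0.14, adjusted p = 0.19 by edgeR, 0.031 with the block and 0.048 by DESeq2). Cd28, the main costimulatory receptor, stood closest to an overlap, at 329, 352 and 352 CPM with the KO label, against 356, 416 and 443 CPM with the WT label (a log2 fold change of -0.23, SE 0.28).

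**Figure D2:**
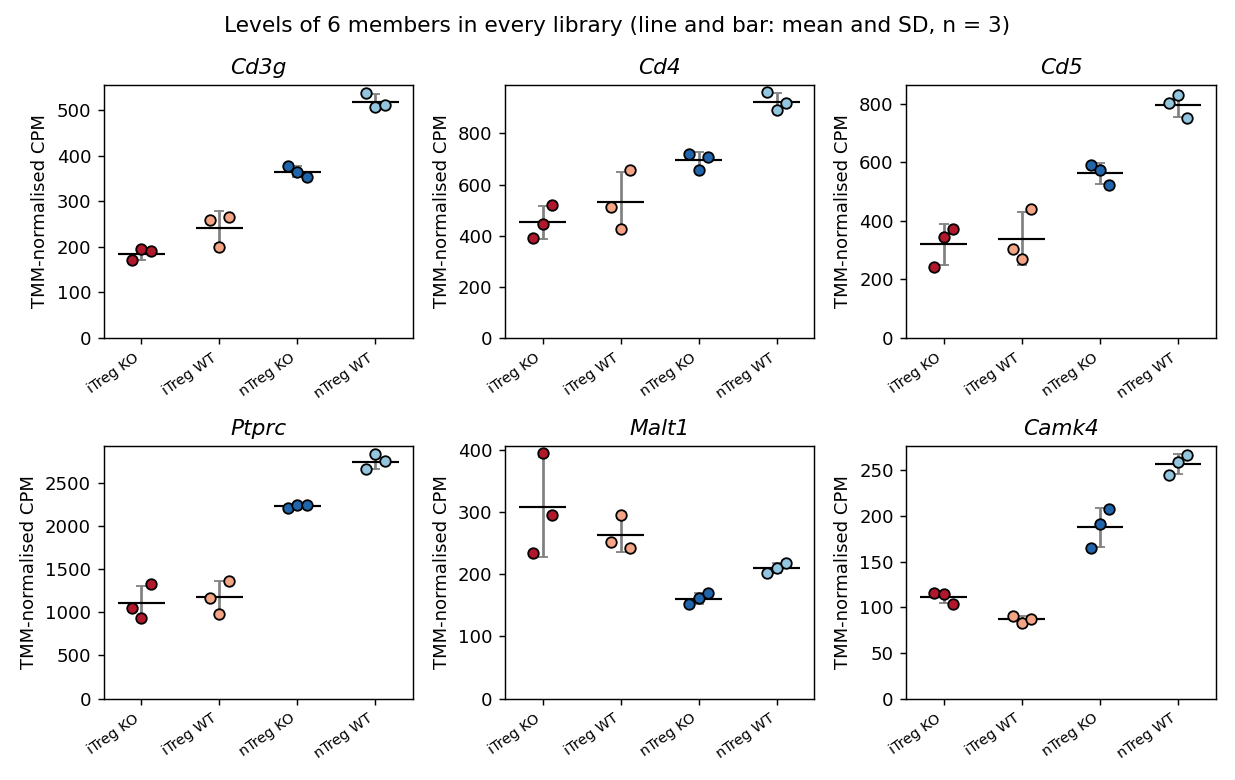
Points are the TMM-normalised CPM of Cd3g, Cd4, Cd5, Ptprc, Malt1 and Camk4 in each library, with a line at the group mean and a bar for its SD (n = 3), and each panel starts at 0. In nTreg the KO-labelled points lie below the WT-labelled ones in each panel, while in iTreg the points of both labels overlap for Cd4, Cd5, Ptprc and Malt1.

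Among the kinases and phosphatases (7 genes, median -0.22) none passed the test, Fyn and Ptprc did with the block, and none had overlapping groups. Lck was at 943, 889 and 897 CPM with the KO label, against 1080, 1049 and 1038 CPM with the WT label (a log2 fold change of -0.22). Fyn, the other Src family kinase of T cells, was at 613, 561 and 601 CPM with the KO label, against 733, 701 and 711 CPM with the WT label (a log2 fold change of -0.27, SE 0.11, adjusted p = 0.30 by edgeR; 0.04 with the block). Zap70 was at 325, 287 and 299 CPM in KO-labelled nTreg, against 376, 381 and 334 CPM in WT-labelled nTreg (log2 fold change -0.26). The values of these 3 kinases were close to each other. Csk, which holds Lck and Fyn inactive, was at 489, 444 and 482 CPM with the KO label, against 530, 517 and 501 CPM with the WT label, with a log2 fold change of -0.13, the closest to 0 of this role. Ptprc, the phosphatase CD45 that keeps Lck ready to act, was at 2210, 2246 and 2246 CPM with the KO label, against 2656, 2829 and 2747 CPM with the WT label (a log2 fold change of -0.30, SE 0.14, adjusted p = 0.38 by edgeR; 0.019 with the block). Its KO-labelled libraries spanned 36 CPM. Among the phosphatases that end the signal, Ptpn6 (SHP-1) was at 248, 263 and 265 CPM with the KO label, against 277, 317 and 284 CPM with the WT label (a log2 fold change of -0.18, SE 0.23). Ptpn22, which acts on Lck and Zap70, was at 244, 229 and 243 CPM with the KO label, against 279.9, 278 and 273 CPM with the WT label (a log2 fold change of -0.21).

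The adaptors and regulators (7 genes, median -0.17) had none that passed, also with the block, and the groups overlapped for Sla and Ubash3a. Lat was at 553, 506 and 516 CPM with the KO label, against 599.5, 582 and 597 CPM with the WT label (a log2 fold change of -0.18). Lcp2 (SLP-76), its partner scaffold, was at 525, 484 and 492 CPM with the KO label, against 613, 541 and 538 CPM with the WT label (a log2 fold change of -0.17). Grap2 (GADS), which links both, was at 219.8, 234 and 254 CPM with the KO label, against 268, 275 and 314 CPM with the WT label (a log2 fold change of -0.28). The labels were 12.7 CPM apart at their edges for Lcp2 and 13.7 CPM apart for Grap2. Vav1 was at 263, 239 and 265 CPM in KO-labelled nTreg, against 289.6, 273 and 276 CPM in WT-labelled nTreg (log2 fold change -0.13). Themis was at 62.9, 71.0 and 75.6 CPM with the KO label, against 83.3, 77.9 and 89.1 CPM with the WT label (a log2 fold change of -0.26). Sla, which directs receptor chains to degradation, was at 374, 318 and 346 CPM with the KO label, against 373, 349 and 402 CPM with the WT label (a log2 fold change of -0.12). Ubash3a, a suppressor of receptor signalling, was at 214, 173 and 181 CPM with the KO label, against 227, 202 and 201 CPM with the WT label (a log2 fold change of -0.15). In both genes KO replicate 1 was the highest KO-labelled library and lay within the range of the WT-labelled ones.

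In the signal branches (5 genes, median -0.16) none passed the test, and Plcg1 and Malt1 did with the block. Plcg1 was at 385, 363 and 386 CPM in KO-labelled nTreg, against 455, 487 and 438 CPM in WT-labelled nTreg (log2 fold change -0.28, SE 0.16, adjusted p = 0.48 by edgeR; 0.045 with the block). Malt1, the protease of the complex that leads to NF-kappa B, was at 152, 162 and 169 CPM with the KO label, against 203, 210.2 and 218 CPM with the WT label (a log2 fold change of -0.39, SE 0.16, adjusted p = 0.31 by edgeR; 0.037 with the block). The groups overlapped for the other 3 genes. Bcl10, the direct partner of Malt1, was at 87.7, 73.3 and 82.0 CPM with the KO label, against 88.5, 84.5 and 74.3 CPM with the WT label (a log2 fold change of -0.02, SE 0.11). Prkcq (PKC theta) was at 435, 391 and 473 CPM with the KO label, against 478, 452 and 519 CPM with the WT label (a log2 fold change of -0.16, SE 0.17). Rasgrp1, the exchange factor for Ras, was at 558, 628 and 623 CPM with the KO label, against 571, 629 and 656 CPM with the WT label (a log2 fold change of -0.04, SE 0.23).

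In the calcium arm (5 genes, median -0.23) Camk4 was counted at 165, 191 and 208 CPM in the KO-labelled nTreg libraries, against 245, 259 and 267 CPM in the WT-labelled ones (log2 fold change -0.45, SE 0.10, adjusted p = 0.031, edgeR; 0.0051 with the block). Its groups were 37.3 CPM apart at their edges. Nfatc1, an NFAT factor that receptor signals themselves induce, was at 332, 337 and 339 CPM with the KO label, against 417, 405 and 396 CPM with the WT label (a log2 fold change of -0.27). Nfatc3, a further NFAT factor, was at 400.1, 392 and 445 CPM with the KO label, against 474, 455 and 519 CPM with the WT label (a log2 fold change of -0.23). The other two genes had overlapping groups. Nfatc2 was at 157, 176 and 193 CPM with the KO label, against 161, 177 and 201 CPM with the WT label (a log2 fold change of -0.04, SE 0.14), and Ppp3ca was at 43.6, 55.3 and 60.9 CPM with the KO label, against 51.1, 47.7 and 62.3 CPM with the WT label (a log2 fold change of -0.01, SE 0.22).

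Both nTreg calls were near the threshold and were lost in most fits that left out 1 nTreg library. The Cd3g call ended when any 1 of the 6 nTreg libraries was left out (adjusted p up to 0.14, edgeR), and the Camk4 call ended without any but nTreg KO replicate 3 (adjusted p up to 0.15, edgeR), although the log2 fold changes stayed between -0.53 and -0.48 for Cd3g and between -0.53 and -0.37 for Camk4. Without the 3 libraries with Xist the values were -0.49 for Cd3g (adjusted p = 0.18) and -0.50 for Camk4 (adjusted p = 0.20, edgeR), and without both nTreg libraries numbered 2 they were -0.52 and -0.46 (adjusted p = 0.32 and 0.33), so no member passed in either fit. The median of the members was -0.24 and -0.23 in these fits.

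Markers of other cells were read beside these values. Treg markers summed to 4186 to 4558 CPM in KO-labelled nTreg and to 4275 to 4780 CPM in WT-labelled nTreg (7 of 7 with reads). Of these Il2ra, the IL2 receptor chain CD25, was higher in all KO-labelled libraries (log2 fold change 0.47, SE 0.13; adjusted p = 0.089 by edgeR, 0.012 with the block and 0.022 by DESeq2), Cd4 was lower as given above, and Foxp3 was at -0.01 (SE 0.21). The 7 B cell markers, all with reads in both groups, summed to 17.4 to 18.04 CPM with the KO label, against 28.8 to 34.5 CPM with the WT label. Cd22, a B cell inhibitory receptor, fell (log2 fold change -1.80, SE 0.33, adjusted p = 0.01, edgeR). The 9 myeloid markers found of 10 listed summed to 41.2, 446 and 86.1 CPM with the KO label, against 51.6, 203 and 83.4 CPM with the WT label. CD8 T cell markers (2 of 2) summed to 15.1 to 19.2 CPM with the KO label, against 12.1 to 16.9 CPM with the WT label. NK markers (4 of 6 with reads; Klra8 and Klra4 at 0) summed to 2.98 to 4.76 CPM with the KO label, against 3.60 to 7.54 CPM with the WT label. Plasma cell markers (4 found of 6 listed) summed to 185 to 190.4 CPM with the KO label, against 165 to 177 CPM with the WT label. The part of these cells in the members' values was not tested. In bulk RNA, fewer cells of a type and less RNA per cell cannot be told apart.

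In iTreg the same pair of genotypes was set side by side in cells whose Foxp3 was induced in culture. No member passed the test, and the members had no common direction: 18 had a negative and 15 a positive log2 fold change, with a median of -0.01 and a range from -0.38 to 0.42. The largest values belonged to Lat, Camk4, Cd3g and Themis.

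With edgeR's quasi-likelihood test 0 of 33 members passed (0.183% of all genes did), 4 had an unadjusted p under 0.05 (7.56% of all genes), and none passed by DESeq2 (0.822% of all genes) or with the block (0.947%). Camk4 and Lcp2 had all KO-labelled libraries above all WT-labelled ones (4.68% of all genes), and Cd3g had all below (4.95%). Camk4 was at 116, 115 and 104 CPM in KO-labelled iTreg, against 90.5, 83.3 and 87.4 CPM in WT-labelled iTreg (log2 fold change 0.35, SE 0.10, adjusted p = 0.35, edgeR; 0.07 with the block). These libraries lay in the opposite order to that of nTreg. Cd3g was at 170.1, 195 and 191 CPM with the KO label, against 259.8, 200.4 and 266 CPM with the WT label (a log2 fold change of -0.38, SE 0.11, adjusted p = 0.37, edgeR), and Lcp2 was at 456, 446 and 504 CPM with the KO label, against 396, 388 and 439 CPM with the WT label (a log2 fold change of 0.20, SE 0.10, adjusted p = 0.68, edgeR). For Cd3g the gap at the edges was 5.3 CPM, smaller than in nTreg.

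Lat was at 538, 808 and 548 CPM in KO-labelled iTreg, against 487, 387 and 546 CPM in WT-labelled iTreg (log2 fold change 0.42, SE 0.16, adjusted p = 0.55, edgeR). The high value came from KO replicate 2, which also held the highest Ptpn6 (512 CPM) and Malt1 (395 CPM) of the iTreg libraries and the lowest Foxp3; without it the Lat value was 0.20 and no member passed. Themis was at 46.2, 36.8 and 43.3 CPM with the KO label, against 58.7, 64.9 and 40.8 CPM with the WT label (a log2 fold change of -0.38, SE 0.16, adjusted p = 0.61, edgeR), and these groups overlapped. The members' summed level spread more within groups in iTreg (SD 768 CPM with the KO label and 1302 CPM with the WT label). In nTreg the SDs were 214 and 15.3 CPM in the same order. Among the WT-labelled iTreg libraries, replicate 3 was the farthest from the group mean for 19 of 33 members. B cell markers summed to at most 3.10 CPM and myeloid markers to at most 5.80 CPM in any iTreg library, with Pax5, Lyz2, C1qa and Fcgr1 at 0 in both labels. NK markers summed to 23.7, 6.00 and 5.36 CPM with the KO label, against 18.4, 18.2 and 3 CPM with the WT label (Ncr1, Klra8 and Klra4 at 0). CD8 T cell markers summed to 10.8, 9.005 and 8.35 CPM with the KO label, against 12.8, 21.4 and 14.4 CPM with the WT label, with no overlap. Plasma cell markers summed to 965, 964 and 889.7 CPM with the KO label, against 736, 967 and 718 CPM with the WT label. Treg markers summed to 4854, 3762 and 4416 CPM with the KO label, against 4797, 4481 and 4930 CPM with the WT label. The part of these cells in the iTreg values was not tested.

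**Figure D3:**
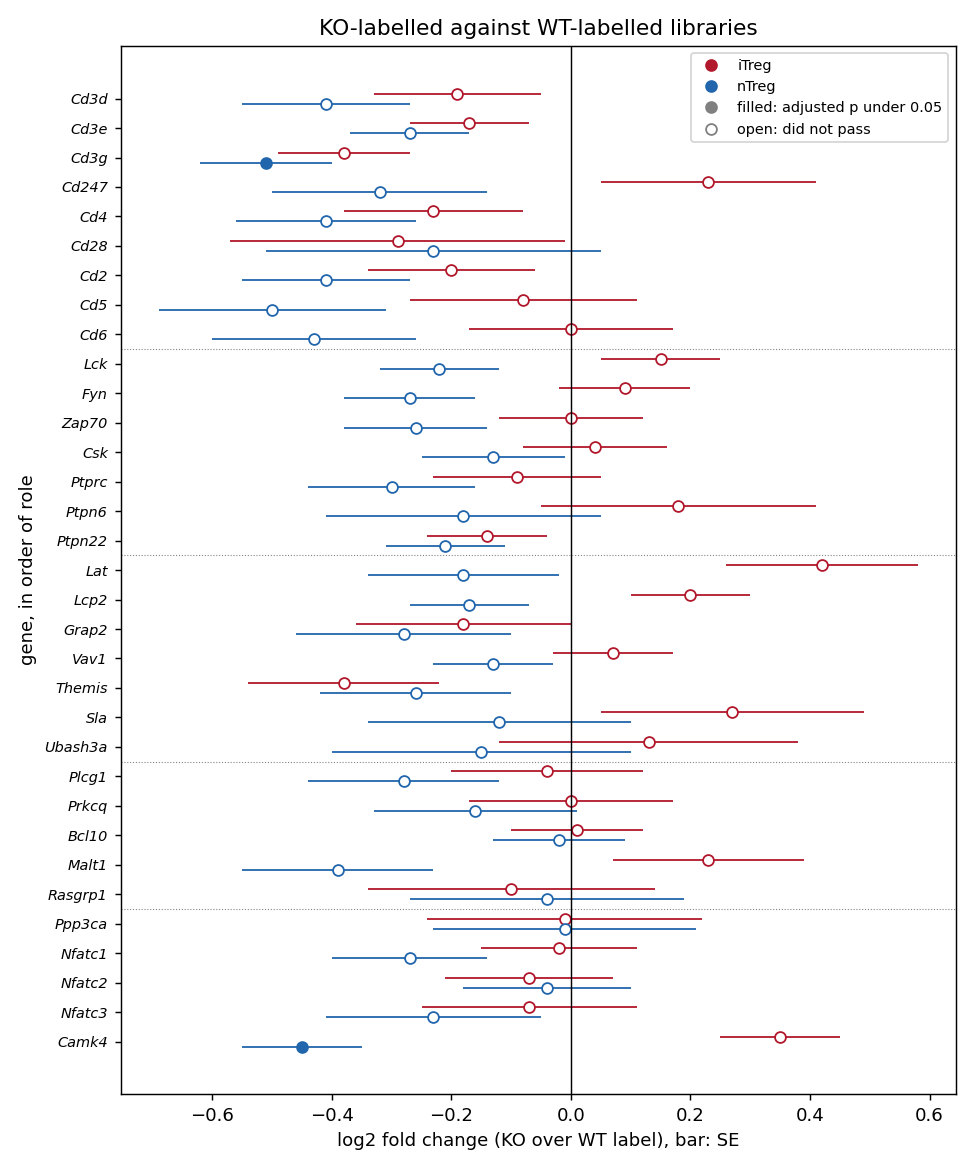
Points are log2 fold changes of KO-labelled over WT-labelled libraries with bars of 1 SE, iTreg above nTreg for each member, and filled points passed the test (adjusted p under 0.05, edgeR). All nTreg points lie left of 0 and only those of Cd3g and Camk4 are filled, while the iTreg points lie on both sides of 0 with Camk4 at 0.35.

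Whether the KO effect differed between both kinds of Treg was tested as the iTreg effect minus the nTreg effect. Camk4 was the single member that passed, with a difference of 0.81 on the log2 scale (SE 0.14, adjusted p = 0.035, edgeR; 0.0088 with the block): it was higher with the KO label in 3 of 3 iTreg libraries and lower in 3 of 3 nTreg libraries. Over all genes 0.0166% passed as higher and 0.291% in either direction. The difference was positive for 28 of 33 members, and for 5469 of the 12038 genes tested. It takes in the nTreg value, which was negative for every member, so this count is not separate from the nTreg result. The members' median difference was 0.21, against -0.03 over all genes. That median was 0.10 without iTreg WT replicate 2, 0.34 without iTreg WT replicate 3 and 0.11 without the 3 libraries with Xist.

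The members with the next largest differences did not pass. Malt1 differed by 0.61 (SE 0.22), Lat by 0.59 (SE 0.23) and Cd247 by 0.56 (SE 0.25), at adjusted p of 0.49, 0.54 and 0.66 (edgeR). Cd3g, which passed in nTreg, differed by 0.12 (SE 0.16, 95% interval -0.24 to 0.49, adjusted p = 0.98, edgeR), so its values in the 2 kinds of Treg were not shown to differ. The same holds for Cd3e, with an interval from -0.23 to 0.42. The Camk4 call stood without iTreg KO replicate 2 (adjusted p = 0.041, edgeR) and ended without any other single library (adjusted p up to 0.13), without the 3 libraries with Xist (0.47) and without both nTreg libraries numbered 2 (0.34), with differences from 0.72 to 0.89 throughout.

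The pathway's other genes were read from a list of 94, of which 88 were found and tested. In nTreg none passed with edgeR, 12 had an unadjusted p under 0.05 (13.4% of all genes did), and 4 were lower by DESeq2 (1.26% of all genes). With the block 8 were lower (3.64% of all genes) and 1 higher (5.36%). Their median log2 fold change was -0.09, and 66 of 88 were negative (47.9% of all genes). All KO-labelled libraries lay below all WT-labelled ones for 23 (14.1% of all genes). The 4 were looked at after their values were seen: Rasal3, a Ras GTPase-activating protein, at -0.49 (SE 0.13), Rltpr, a CD28 adaptor, at -0.32 (SE 0.09), and the IP3 receptors Itpr2 and Itpr3, which release calcium, at -0.33 (SE 0.10) and -0.34 (SE 0.11). In iTreg none passed with edgeR, with the block or by DESeq2, and 3 had an unadjusted p under 0.05 (7.56% of all genes). For the difference likewise none passed with edgeR, with the block (1.8% of all genes) or by DESeq2 (1.16%), and 3 had an unadjusted p under 0.05 (7.44%).

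The comparison of iTreg with nTreg sets the cultured cells beside those sorted from the animal, within each label. Most members fell. With the KO label 19 of 33 were lower in iTreg and 2, Malt1 and Nfatc2, were higher. With the WT label 27 were lower and 1, Nfatc2, was higher. The largest falls with the WT label, to between 0.329 and 0.378 of the nTreg level, were those of Prkcq, Camk4, Sla, Cd247, Rasgrp1 and Cd6. Culture, cell origin and the time of isolation differ together between these groups, so they cannot be told apart.

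Markers moved between iTreg and nTreg as well. The Treg markers went in both directions. Foxp3 fell (log2 fold change -0.95 with the KO label and -0.79 with the WT label), as did Ctla4, an inhibitory receptor of Treg (-0.91 and -0.79 in the same order), and Ikzf2, the factor Helios (-5.00 and -5.42). Il2ra rose (1.36 with the KO label and 1.91 with the WT label, SE 0.13 each). Summed Treg markers were at 3762 to 4930 CPM in iTreg and 4186 to 4780 CPM in nTreg. Of other cells, B cell markers summed to 0.725 to 3.10 CPM in iTreg and 17.4 to 34.5 CPM in nTreg, and myeloid markers to 3.55 to 5.80 CPM in iTreg and 41.2 to 446 CPM in nTreg. CD8 T cell markers summed to 8.35 to 21.4 CPM in iTreg and 12.1 to 19.2 CPM in nTreg, with Cd8a higher in iTreg (2.06 with the KO label and 2.91 with the WT label). The other gene of this list, Cd8b1, was lower in iTreg (-1.62 and -0.75 in the same order). NK markers summed to 3 to 23.7 CPM in iTreg and 2.98 to 7.54 CPM in nTreg, and went in both directions. Klrc1 rose (6.32 with the KO label and 7.54 with the WT label) and Klrb1c fell (-6.15 and -6.02 in the same order). Gzma did not pass (1.37 and 1.76). Plasma cell markers summed to 718 to 967 CPM in iTreg and 165 to 190.4 CPM in nTreg, of which Irf4, also a factor of activated T cells, made up 713 to 962 CPM in iTreg and 116 to 152 CPM in nTreg. Of the others, Sdc1 rose (2.04 with the KO label and 3.33 with the WT label). Prdm1 (-3.43 and -3.89 in the same order) and Igj (-5.51 and -5.01) fell. The part of these markers in the members' values was not tested.

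Over all genes 61.9% passed with the KO label (29.8% lower and 32.1% higher) and 65.2% with the WT label (30.4% lower and 34.8% higher, edgeR). The members' median log2 fold change was -0.62 with the KO label, against 0.01 over all genes, and -0.60 with the WT label, against 0.05 over all genes. Groups did not overlap for 23 members lower and 1 higher with the KO label (32.8% and 34.1% of all genes) and for 28 lower and 2 higher with the WT label (33.9% and 37.4%). Both comparisons are made of the same 12 libraries as the KO comparisons, and the difference between them is the test that Camk4 alone of the members passed.

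In the paragraphs that follow, levels are those of iTreg, the nTreg levels are the ones given above, and each value after a level is the log2 fold change of iTreg over nTreg for that label. In the receptor and coreceptors 8 of 9 fell with each label, Cd2 being the exception. Cd3g fell by 0.98 on the log2 scale with the KO label (SE 0.11, adjusted p = 1.6e-05) and by 1.10 with the WT label (SE 0.11, adjusted p = 4.9e-06, edgeR). Cd3d was at 187, 235 and 220.2 CPM with the KO label (-0.37) and at 253, 204 and 274 CPM with the WT label (-0.60). Cd3e was at 295, 327 and 265 CPM with the KO label (-0.69) and at 366, 308 and 326 CPM with the WT label (-0.79). Of the CD3 cluster Cd3g thus had the most negative value with both labels and Cd3d the least negative. Cd247 was at 134, 204 and 126 CPM with the KO label (-0.90) and at 119, 113 and 162 CPM with the WT label (-1.46). Cd5 was at 241, 345 and 372 CPM with the KO label (-0.82) and at 305, 269 and 440.4 CPM with the WT label (-1.23). Cd6 was at 221, 353 and 318 CPM with the KO label (-0.97) and at 259.9, 260 and 370.4 CPM with the WT label (-1.40). All iTreg levels of these 3 genes lay below the lowest nTreg library of the same label. Cd4 was at 392, 444 and 521 CPM with the KO label (-0.62) and at 511, 426 and 657 CPM with the WT label (-0.80). Cd28 was at 164, 144 and 305 CPM with the KO label (-0.75) and at 242, 161 and 345 CPM with the WT label (-0.70). Replicate 3 was the highest of each label. The Cd28 calls were weak (adjusted p = 0.036 with the KO label and 0.046 with the WT label, edgeR). They ended with no filter, and on leaving out any of 5 single libraries with the KO label (values -1.17 to -0.55) or any of 9 with the WT label (-1.01 to -0.46). The value reached -1.17 without iTreg KO replicate 3 with the KO label, and -0.46 without iTreg WT replicate 2 with the WT label. Cd2 was at 354, 417 and 435 CPM with the KO label (0.00) and at 439.9, 377 and 569.6 CPM with the WT label (-0.20). Its libraries overlapped those of nTreg.

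Among the kinases and phosphatases 3 of 7 fell with the KO label and 6 of 7 with the WT label, and Fyn and Ptprc had the most negative values with both. Fyn was at 331, 304 and 351 CPM with the KO label (-0.85) and at 322, 259 and 343 CPM with the WT label (-1.21). Ptprc was at 1045, 935 and 1329 CPM with the KO label (-1.02) and at 1168, 984 and 1362 CPM with the WT label (-1.23). Lck was at 761, 878 and 814 CPM with the KO label (-0.15, did not pass) and at 736, 654 and 828 CPM with the WT label (-0.51). Whether Fyn and Lck changed by different amounts was not tested. Zap70 was at 229, 309.8 and 271 CPM with the KO label (-0.17, did not pass) and at 276, 243 and 292 CPM with the WT label (-0.43). Csk was at 402, 423 and 432 CPM with the KO label (-0.17, did not pass) and at 382, 348 and 489 CPM with the WT label (-0.34). Of the phosphatases that end the signal, Ptpn22 fell with both labels. It was at 179, 204 and 206 CPM with the KO label (-0.28) and at 239.7, 218 and 192 CPM with the WT label (-0.36). Ptpn6 was at 227, 512 and 272 CPM with the KO label (0.38, SE 0.23) and at 269, 296 and 329 CPM with the WT label (0.03, SE 0.23). It passed with neither.

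Among the adaptors and regulators 3 of 7 fell with the KO label and 5 of 7 with the WT label. Those that fell with both labels were the regulators Sla, Ubash3a and Themis. Sla was at 111, 173 and 179 CPM with the KO label (-1.17) and at 120.1, 90.2 and 172 CPM with the WT label (-1.56). Ubash3a was at 101, 96.1 and 151 CPM with the KO label (-0.70) and at 95.3, 69.1 and 154 CPM with the WT label (-0.99). Themis, at the levels given above, had -0.73 with the KO label and -0.60 with the WT label. The scaffold genes had smaller values. Lcp2 passed with the WT label (-0.47, SE 0.10) and not with the KO label (-0.09, SE 0.10). Vav1 was at 230.3, 261 and 241 CPM with the KO label (-0.07, did not pass) and at 218, 217 and 263 CPM with the WT label (-0.26). Lat and Grap2 passed with neither label. Lat had 0.27 (SE 0.16) with the KO label and -0.32 (SE 0.16) with the WT label. Grap2 was at 211, 144 and 252 CPM with the KO label (-0.22, SE 0.18) and at 229, 189 and 271 CPM with the WT label (-0.31, SE 0.18).

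The signal branches went in both directions. Prkcq was at 158, 133 and 188 CPM with the KO label (-1.44, SE 0.17, adjusted p = 2.4e-05) and at 153, 123 and 202 CPM with the WT label (-1.60, SE 0.17, adjusted p = 8.9e-06, edgeR). Rasgrp1 was at 242, 129 and 279 CPM with the KO label (-1.48) and at 230.1, 180 and 285 CPM with the WT label (-1.42). The highest iTreg library stayed below the lowest nTreg library of the same label by at least 203 CPM for Prkcq and 279 CPM for Rasgrp1. Malt1 went the other way, at 234, 395 and 296 CPM in KO-labelled iTreg, against 152, 162 and 169 CPM in KO-labelled nTreg (a log2 fold change of 0.94, SE 0.16, adjusted p = 0.00029, edgeR). With the WT label Malt1 was at 252, 295 and 243 CPM in iTreg, against 203, 210.2 and 218 CPM in nTreg (its log2 fold change 0.32, SE 0.16, adjusted p = 0.089 by edgeR). The iTreg libraries lay above the nTreg libraries without overlap for each label. Plcg1 was at 342, 249 and 386 CPM with the KO label (-0.22, did not pass) and at 358, 270.3 and 376 CPM with the WT label (-0.46). Bcl10 was at 61.8, 67.6 and 72.2 CPM with the KO label (-0.27, did not pass) and at 59.3, 69.1 and 72.5 CPM with the WT label (-0.30).

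In the calcium arm Camk4 fell by 0.75 on the log2 scale with the KO label (SE 0.10, adjusted p = 4.7e-05) and by 1.56 with the WT label (SE 0.10, adjusted p = 1.4e-07, edgeR). The gap between these values is the difference of 0.81 tested above. Nfatc3 was at 208, 177 and 288 CPM with the KO label (-0.88) and at 202, 213 and 292 CPM with the WT label (-1.04). Ppp3ca was at 32.5, 15.6 and 27.6 CPM with the KO label (-1.08) and at 25.1, 22.9 and 28.6 CPM with the WT label (-1.08). Nfatc1 was at 289, 286 and 281 CPM with the KO label (-0.24, did not pass) and at 332, 315 and 223 CPM with the WT label (-0.49). Nfatc2 was the NFAT factor that rose. It was at 268, 191 and 226 CPM in KO-labelled iTreg, against 157, 176 and 193 CPM in KO-labelled nTreg (a log2 fold change of 0.38, SE 0.14, adjusted p = 0.035, edgeR). With the WT label it was at 255, 256 and 208 CPM in iTreg, against 161, 177 and 201 CPM in nTreg (its log2 fold change 0.42, SE 0.14, adjusted p = 0.022 by edgeR). These groups overlapped with the KO label and not with the WT label.

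**Figure D4:**
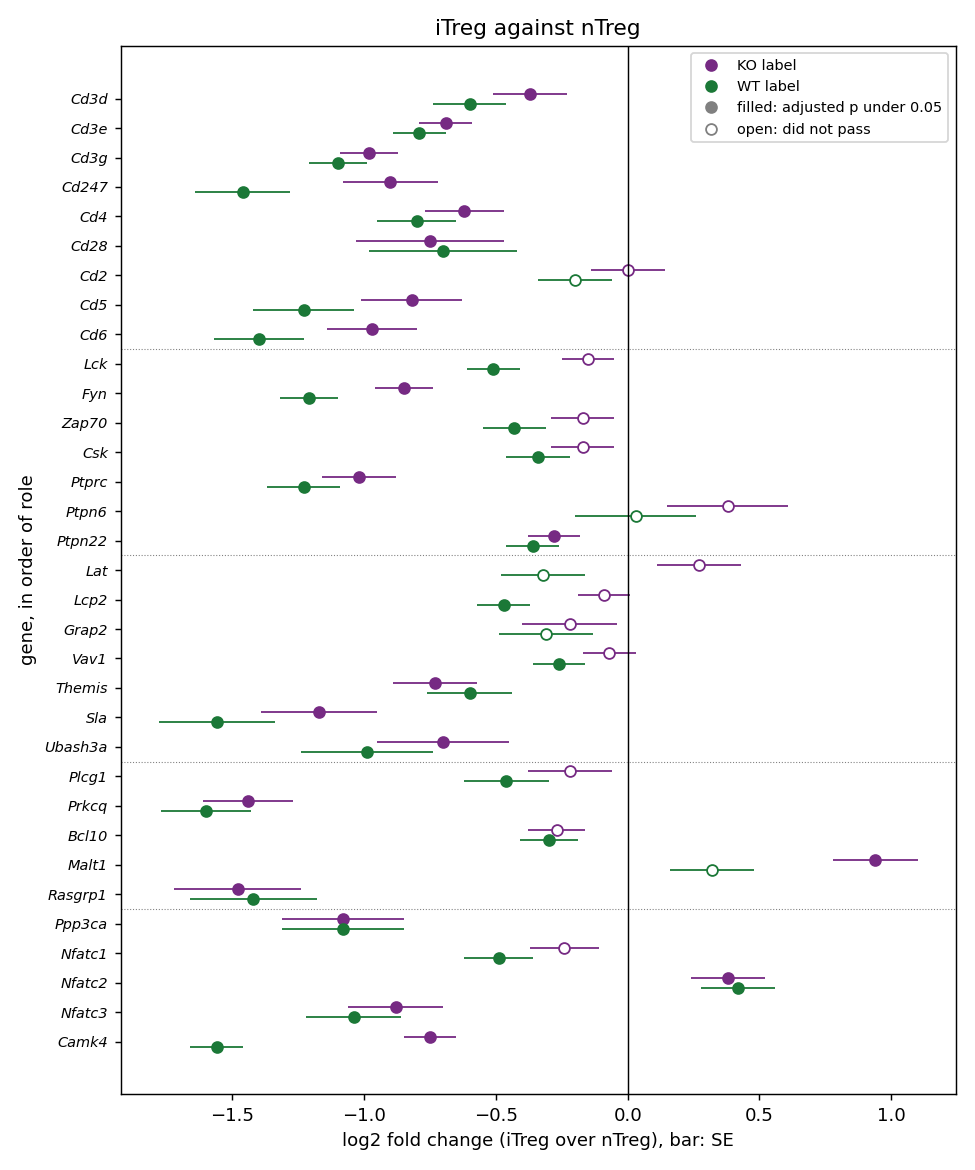
Points are log2 fold changes of iTreg over nTreg with bars of 1 SE, the KO label above the WT label for each member, and filled points passed the test (adjusted p under 0.05, edgeR). Most points lie left of 0, Malt1 and Nfatc2 lie right of it with both labels, and the labels are farthest apart for Camk4 (-0.75 with the KO label and -1.56 with the WT label).

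Over the alternative fits, single libraries left out among them, 15 to 20 members were lower with the KO label and 20 to 29 with the WT label. Of the calls, 16 of 21 with the KO label and 20 of 28 with the WT label were made in all 17 alternatives. The calls lost in at least 1 were those of Cd3d, Cd28, Ptpn22, Ubash3a and Nfatc2 with the KO label, and of Cd28, Zap70, Csk, Ptpn22, Vav1, Plcg1, Bcl10 and Nfatc2 with the WT label. Leaving out both nTreg libraries numbered 2 ended all 5 of these KO-label calls, and leaving out the 3 libraries with Xist ended all 8 of the WT-label calls. Of the 88 other pathway genes 43 were lower and 17 higher with the KO label (29.8% and 32.1% of all genes), with a median of -0.42. With the WT label 48 were lower and 15 higher (30.4% and 34.8% of all genes), with a median of -0.48. By smallest p with the WT label the falls were led by Itpr2 (-2.18, SE 0.10), Rasal3 (-1.63, SE 0.13), Tespa1, a partner of the IP3 receptor (-2.81, SE 0.24), and Nck2, an adaptor to actin (-2.14, SE 0.19). The rises were led by Traf6, a ubiquitin ligase of the NF-kappa B arm (1.71, SE 0.14), Dusp22, a phosphatase of Lck (2.12, SE 0.21), Calm2, a calmodulin gene (0.82, SE 0.09), and Ubash3b, a relative of Ubash3a (1.37, SE 0.16). With the KO label Itpr2 (-1.89, SE 0.10), Nck2 (-2.30, SE 0.19), Itpr1 (-1.85, SE 0.16) and Tespa1 (-2.78, SE 0.24) led the falls, and Traf6 (1.52, SE 0.14), Ubash3b (1.78, SE 0.16), Calm2 (0.77, SE 0.09) and Map3k7, the kinase TAK1 (1.12, SE 0.14), led the rises.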

How the data were processed

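RNA-seq of the 12 libraries was read from per-library tables. The values are raw read counts per gene symbol, as the authors deposited them. Per the submitters' processing notes, cutadapt 1.13, STAR, HTSeq 0.6.1p1, DESeq2 and the mm10 build were used; their settings, the annotation and the strand setting are not given in the sources used here. Groups and replicate numbers come from the labels. The 33 members, the gene lists and the tests were chosen with earlier results of these data known.

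Genes were kept by edgeR's filter (minimum count 10, minimum total 15), which left 12038, and scaled by TMM. A quasi-likelihood fit over all 4 groups (edgeR 4.0.16, limma 3.58.1, R 4.3.3; 8 residual degrees of freedom) gave all 5 comparisons, with Benjamini-Hochberg adjustment over all genes tested. All 4 groups share the estimate of a gene's spread, so spread in iTreg enters the nTreg p-values too. Without iTreg KO replicate 2, 432 genes passed for KO against WT in nTreg, against 304 with all libraries. Intervals are 95% intervals of the fitted log2 fold change. All members are named; of other pathway genes, up to 4 higher and 4 lower by smallest p in iTreg against nTreg. Alternatives were size factors by RLE, no filter, DESeq2 1.42.0, a replicate block, each library left out, the 3 libraries with Xist left out, and both nTreg libraries numbered 2 left out.

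The pairing of KO-labelled with WT-labelled libraries was checked by correlating their deviations from the group means. Same-numbered pairs gave 0.326 to 0.652 in iTreg and 0.501 to 0.621 in nTreg, and other pairs -0.544 to 0.139, so the numbers were taken to pair libraries within each kind of Treg. The pairing comes from these values and not from a statement in the labels. Xist, without normalisation, was at 2035 CPM in iTreg WT replicate 2 and at 0 in iTreg KO replicate 2, so this pair differed in it. In nTreg both libraries numbered 3 held it, at 723 CPM with the WT label and 486 with the KO label. The block leaves 4 residual degrees of freedom.

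The fit was tested on simulated counts with 200 changed genes. It recovered 31.3% of 1.5-fold and 65.7% of 2-fold changes for iTreg KO against WT (11918 genes). For nTreg KO against WT it recovered 7.46% and 55.2% (11897 genes), and for the difference 11.9% and 32.8% (11918 genes). For iTreg against nTreg it recovered 16.4% and 61.2% with the KO label and 14.9% and 65.7% with the WT label (11852 genes). In the data 61.9% of genes passed for iTreg against nTreg with the KO label and 65.2% with the WT label. The simulation had far fewer changed genes, so its shares for iTreg against nTreg do not describe recovery in the data. None of the 66 pairs of libraries held identical values. Positions and exon lengths are from GENCODE M21 (GRCm38, the assembly of mm10), and promoter windows are from RefSeq.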

Additional observations from a re-analysis of the deposited data

Results flagged for a closer look

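The log2 fold change of KO-labelled over WT-labelled libraries for Camk4, a kinase of the calcium arm, differed between iTreg and nTreg by 0.81 (SE 0.14, adjusted p = 0.035, edgeR). It was picked out because the test of that difference passed. The value was 0.35 (SE 0.10) in iTreg and -0.45 (SE 0.10) in nTreg, and all 3 libraries of each group kept to 1 side of the other label. Groups of 3 libraries are too small to look for single outlying values.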

How the results depend on the processing

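With other size factors (RLE) or no filter the members called stayed at 2 for KO against WT in nTreg, 0 in iTreg and 1 for the difference. DESeq2 called 3, 0 and 1. The replicate block called 10 in nTreg, where both members of the unblocked fit remained, and changed no other call. Without the 3 libraries with Xist, and without both nTreg libraries numbered 2, the count was 0 in nTreg, 0 in iTreg and 0 for the difference. With 1 library left out it was 0 to 2 in nTreg, 0 in iTreg and 0 to 1 for the difference. Fewer libraries leave fewer residual degrees of freedom; beyond that, the cause was not tested. No called value changed sign. In iTreg against nTreg the count was 21 with the KO label (16 to 22 with 1 library left out) and 28 with the WT label (22 to 30). In nTreg the members' median stayed between -0.29 and -0.22 in all these fits.

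Counts over all genes moved more. In iTreg the count was 22, against 99 by DESeq2, 114 with the block, 0 without the Xist libraries, 7 without nTreg libraries numbered 2, and 0 to 64 with 1 library left out. For the difference it was 35, against 140, 217, 1, 1 and 1 to 58 in the same order. In nTreg it was 304 (263 higher, 41 lower), against 496 by DESeq2 (344 higher, 152 lower), 1083 with the block (645 higher, 438 lower), 71, 103 and 167 to 432. At this depth and with 3 libraries a group, changes near 1.5-fold were mostly not recovered for these comparisons in counts simulated with 200 changed genes.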
